A study of Arabidopsis thaliana with 32 samples.

Results

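The roots of the Arabidopsis thaliana mutant sku5 were compared with those of its wild type, WS (Wassilewskija), on the ground at 4 d, and all 381 loci that the authors list for this pair of groups are described. Over all their tables the authors list 4882 loci, so 7.8% of these were called here. The study grew both genotypes on plates aboard the International Space Station and in matching hardware on the ground, and sequenced 32 root samples in 8 groups of 4. The comparison rests on 4 samples of WS and 4 of sku5, each a pool of 5 to 8 whole roots dissected from light-grown seedlings that had been fixed in RNAlater. Both groups germinated on upright plates of solid MS medium under lamps giving 100 to 135 µmol per m2 and s, in a chamber that followed the station's lighting, temperature and carbon dioxide 48 h later. The labels name the mutant but not its allele, its outcrossing history or the number of lines. A locus counts as called where the authors' Cuffdiff test gave a q-value under 0.05, and only called loci are in the table. The values are FPKM (fragments scaled by transcript length and library size), a single value for each group, so the spread between the 4 samples and their depth are not known. Every FPKM below is the authors' group value, and every fold is sku5 against WS. In bulk roots, fewer cells of a type and less RNA per cell cannot be told apart.

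SKU5 encodes a glycoprotein anchored to the outer face of the plasma membrane by glycosylphosphatidylinositol (GPI), with the fold of multicopper oxidases but without the residues that bind copper. Roots that lack it skew strongly to 1 side when they grow along a tilted agar surface, and their cell files twist. Skewing is thought to combine gravity sensing, touch, and the way the wall and the cortical microtubules steer the expansion of epidermal cells.

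SKU5 itself (AT4G12420) was lower in the sku5 samples, which matches their labels. The authors place it on chromosome 4 from 7143426 to 7147294, on a genome build that the sources used here do not name. Its level was 38.9 FPKM in WS and 10.4 FPKM in sku5, and the authors' deposited table gives a log2 fold change of -1.90 (standard error 0.437, from the authors' test statistic) with q = 0.00558. SKU5 transcript was therefore listed at 3.72-fold below WS and not at 0. Whether the remaining reads cover the whole transcript cannot be seen from a value per locus.

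The other called loci fell almost evenly on both sides. Of the 381, 183 were higher in sku5 and 198 were lower, which is 3.75% and 4.06% of the loci listed in any table. The median change was 1.83-fold among those that were higher and 1.85-fold among those that were lower. The sides differed at the extremes: the largest rise was 4.88-fold, whereas 35 loci were at least 4-fold lower and 25 at least 8-fold lower, both counts including 13 loci listed at 0 in sku5. No locus was listed at 0 in WS, and 2 loci were at least 4-fold higher. The standard error of a log2 fold change, computed from the authors' test statistic, had a median of 0.431, from 0.301 to 3.42. Of the entries, 345 carry a single gene and 36 merge neighbouring genes, and a merged entry does not say which of its genes moved. Among single genes the median reference transcript was 1548 nt for 165 higher loci and 1140 nt for 180 lower loci, and the part of length in the calls was not tested. Near the threshold, at q = 0.0495 in the authors' deposited table, stood the prefoldin subunit gene PFD3 (AT5G49510), at 196 FPKM in WS and 135 FPKM in sku5. The loci just outside it are not listed.

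**Figure D1:**
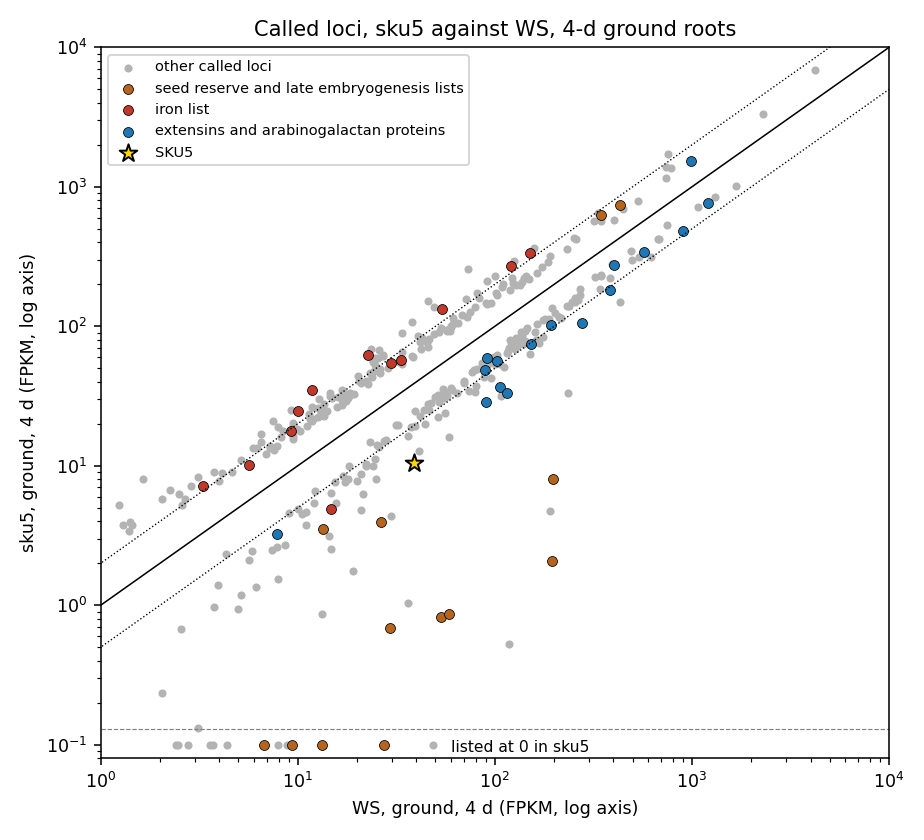
Level of each of the 381 called loci in WS (horizontal) and sku5 (vertical) 4-d ground roots, in FPKM on log axes; the solid line marks equal levels, dotted lines a 2-fold change, and points under the dashed line are the 13 loci listed at 0 in sku5. Most loci lie near the 2-fold lines, and the points far below them are lower in sku5, many of them from the seed reserve and late embryogenesis lists.

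Seed maturation genes were among the deepest falls. Of the 25 loci at least 8-fold lower in sku5 or listed at 0 there, 9 belong to the lists that follow. Of all 198 lower loci, 11 belong to them. Late embryogenesis abundant proteins and dehydrins protect membranes and proteins of the drying embryo, while albumins, cupins and oil-body proteins hold its nitrogen and lipid stores; their genes are turned on late in seed development under abscisic acid and switched off at germination. Of 19 seed reserve and oil-body genes fixed as a list, 12 loci are listed in any table and 6 were called here, all lower. Among 86 genes annotated as late embryogenesis, seed maturation or storage proteins, 33 loci are listed in any table. Of these, 9 were called (27.3%, against 7.8% of all listed loci), 7 lower and 2 higher. The lists share the oleosin-family gene AT1G48990 and SESA3, so together they hold 13 called loci.

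The embryo gene GEA6 (AT2G40170), also called EM6, stood at 195 FPKM in WS and 2.08 FPKM in sku5. This is a 94.0-fold difference, with a computed standard error of 1.02 on the log2 scale. AT3G17520, a late embryogenesis family gene, stood at 58.6 and 0.873 FPKM. The storage cupin gene PAP85 (AT3G22640) stood at 53.2 and 0.831 FPKM, and the late embryogenesis gene AT3G15670 at 29.4 and 0.687 FPKM. The seed maturation gene AT2G21820 was at 197 FPKM in WS and 8.07 FPKM in sku5. In each of these 5 the sku5 value was under 10 FPKM. LEA7 (AT1G52690) was less far apart, at 26.5 and 3.94 FPKM, and malate synthase (MLS, AT5G03860), which turns stored lipid into sugar precursors in the germinating seed, at 13.5 and 3.51 FPKM.

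Of the 13 loci listed at 0 in sku5, the highest in WS was AT2G38905, of the low temperature and salt responsive family, at 48.4 FPKM. The dehydrin gene LEA (AT2G21490) was at 27.4 FPKM in WS, the caleosin gene ATS1 (AT4G26740), for a peroxygenase of the oil-body surface, at 13.2 FPKM, and the 2S albumin gene SESA3 (AT4G27160) at 9.36 FPKM. ATHSP22.0 (AT4G10250), a small heat shock protein of the endoplasmic reticulum, was at 8.80 FPKM. The other 8 lay between 2.41 and 7.94 FPKM in WS. For each of the 5 named, q = 0.00558 in the authors' deposited table, and no fold is given against a 0.

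Several of the largest falls carry no seed annotation. The largest finite one was AT1G54870, an NAD(P)-binding protein of the Rossmann-fold superfamily, at 118 FPKM in WS and 0.530 FPKM in sku5, 222-fold lower. AT1G03106, of unknown function, stood at 191 and 4.73 FPKM. HVA22B (AT5G62490), a homologue of a barley gene induced by abscisic acid, stood at 36.4 and 1.04 FPKM. TSPO (AT2G47770), a membrane protein induced by water stress, was at 19.0 and 1.77 FPKM, and the mitochondrial small heat shock protein gene HSP23.6-MITO (AT4G25200) at 13.2 and 0.859 FPKM. In each of these 5, sku5 stood below 5 FPKM. Of 38 heat shock loci in any table, 3 were called, all lower, a share of 7.89% that is near the 7.8% of all listed loci.

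The sequence before the start of these genes can be set beside their levels. Below are the 250 bases upstream of the annotated start of 3 of them in the RefSeq annotation of the Columbia reference genome, build TAIR10.1, chosen as a late embryogenesis, a stress and an albumin gene. They were taken by locus identifier, since the authors' coordinates do not follow that build, and WS may differ from Columbia in sequence. Capitals mark ACGTG, the core of abscisic acid response elements, CACGTG, the G-box, which contains it, and CATGCA, the RY element bound by B3 regulators of seed maturation, on either strand.
GEA6, chr2:16780369-16780618, minus strand: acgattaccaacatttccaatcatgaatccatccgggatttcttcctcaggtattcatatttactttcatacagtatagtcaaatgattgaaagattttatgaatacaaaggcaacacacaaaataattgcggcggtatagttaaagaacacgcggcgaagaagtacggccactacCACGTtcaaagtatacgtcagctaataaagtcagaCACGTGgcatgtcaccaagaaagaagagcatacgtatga
AT2G38905, chr2:16244532-16244781, minus strand: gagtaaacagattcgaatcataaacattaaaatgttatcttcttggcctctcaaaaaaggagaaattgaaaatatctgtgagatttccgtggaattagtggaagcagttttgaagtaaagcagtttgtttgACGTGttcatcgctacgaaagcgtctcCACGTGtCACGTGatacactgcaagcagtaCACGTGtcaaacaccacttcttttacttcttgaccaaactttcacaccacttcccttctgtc
SESA3, chr4:13611546-13611795, plus strand: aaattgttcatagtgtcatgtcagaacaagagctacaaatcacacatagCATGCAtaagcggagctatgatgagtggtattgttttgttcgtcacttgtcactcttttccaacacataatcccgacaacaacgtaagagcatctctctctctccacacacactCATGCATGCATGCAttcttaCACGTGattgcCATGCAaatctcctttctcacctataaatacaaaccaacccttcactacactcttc

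Counted on both strands, ACGTG occurs 3 times before GEA6 and 7 times before AT2G38905, with a G-box counting on each strand. CATGCA occurs 7 times before SESA3, overlaps included. Of 24 single genes at least 8-fold lower in sku5 or listed at 0 there, 18 (75.0%) hold ACGTG in this window, against 22.9% of 27437 protein-coding genes and 41 of the 154 other single genes that were lower. CACGTG is in 12 of the 24, against 6.49% of all genes, and CATGCA in 8 of the 24, against 8.43% of all genes and 9 of the 154. These are matches of letters, given with no test.

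The authors' other tables hold values for the same loci, but those for spaceflight and age share the 4-d ground samples, so their levels are only set side by side. GEA6 stood at 452 FPKM in 4-d WS roots in spaceflight and 1205 FPKM in 4-d sku5 roots in spaceflight. SESA3 stood at 12.4 and 66.2 FPKM there, and AT1G54870 and PAP85 likewise had their lowest 4-d value in sku5 on the ground. These loci were chosen for low values in that group, so its lying below WS on the ground was fixed by the choice. Of the 35 loci at least 4-fold lower or at 0, 34 have a value for 4-d sku5 roots in spaceflight, with a median of 86.8 FPKM from 13.1 to 1301, against a median of 0.831 FPKM in sku5 and 13.2 FPKM in WS on the ground. At 8 d on the ground 17 of the 35 have a value in WS, 9 of them at 0. A locus enters these counts only where some table lists it.

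**Figure D2:**
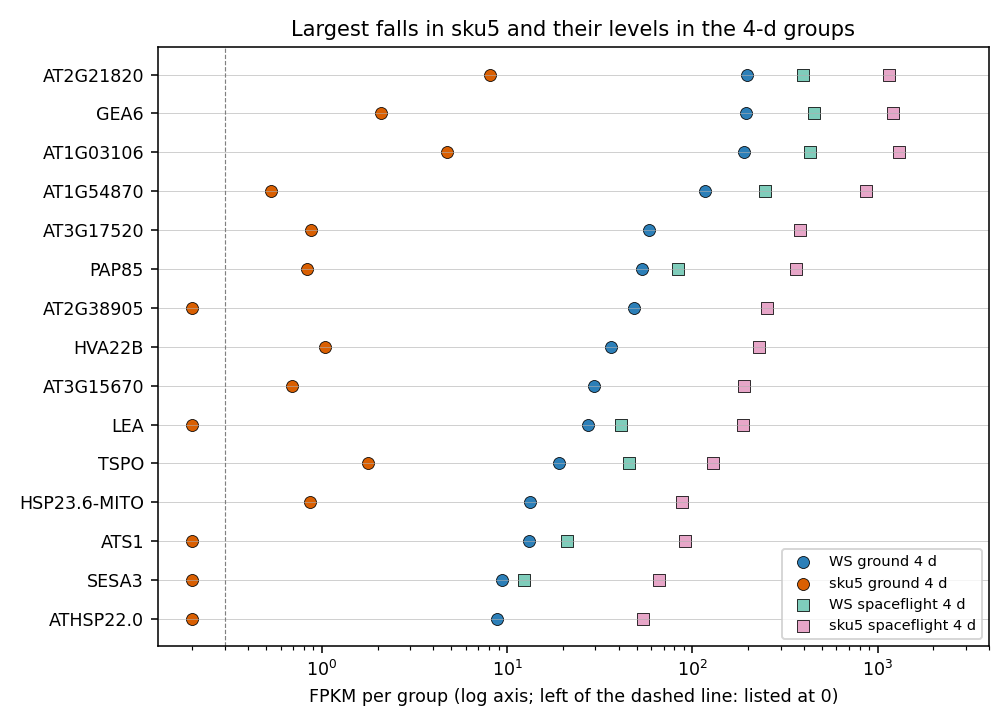
FPKM on a log axis of the 10 largest finite falls and the 5 highest loci listed at 0 in sku5, in WS (blue, green) and sku5 (orange, pink) 4-d roots on the ground (circles) and in spaceflight (squares); a missing square is a group in which no table lists the locus. In each locus the lowest value is that of sku5 on the ground and the highest that of sku5 in spaceflight. The loci were chosen for being far lower in sku5 than in WS on the ground, so that part of the order was fixed by the choice.

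The list of residual seed markers overlaps this group of genes and is no separate support. Of its 14 genes, 7 loci are listed in any table and 2 were called (28.6%, against 7.8% of all listed loci). These were GEA6 and SESA3, both lower in sku5, with a summed level of 205 FPKM in WS and 2.08 FPKM in sku5. SESA3 was at 0 in sku5. SESA2 and OLEO4, from the authors' other tables, stood at 38.4 and 26.6 FPKM in 4-d WS ground roots, and have no value in 4-d sku5 ground roots. The listed markers CRA1, CRU3 and SESA1 have none there either. SESA genes are close copies, among which reads can be split. GEA6 and SESA3 are members of both the seed lists and the markers, and the part of seed tissue carried along with the roots was not tested. Of 19 markers of green shoot tissue, 7 loci are in any table and 0 were called, a number too small to read beside the 7.8% of all listed loci. In the authors' other tables RBCS1A, for the Rubisco small subunit, stood at 184 FPKM in both groups, RBCS3B at 23.4 FPKM in WS and 21.0 FPKM in sku5, and the Rubisco activase gene RCA at 19.6 and 25.4 FPKM, and the other 4 lack a value in 1 or both groups.

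Few markers of root cell types have values in both groups. In any table are 1 root hair, 0 root cap, 3 endodermis, 2 stele and 2 quiescent centre loci, and 0 were called, so the label of root tissue could be checked only through those that follow. The quiescent centre gene WOX5 stood at 27.3 FPKM in WS and 29.5 FPKM in sku5, and CASP4, a scaffold of the Casparian strip, at 33.5 and 40.2 FPKM, in tables that compare other groups. Transcripts of both were thus listed in both genotypes.

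Called genes of iron acquisition were mostly higher in sku5. Arabidopsis takes up iron by acidifying the soil, reducing ferric iron and importing the ferrous ion, and the bHLH factor FIT, paired with the bHLH38 group, turns these steps on when iron is short. Of 47 genes listed for iron, 23 loci appear in any table and 12 were called (52.2%, against 7.8% of all listed loci). Of the 12, 11 were higher in sku5 and 1 lower, with a median log2 fold change of 1.13. Their summed level was 467 FPKM in WS and 1015 FPKM in sku5.

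Called loci of regulators and of uptake families on the list moved alike. The merged locus of the transcription factor genes bHLH38 and bHLH39 stood at 53.9 FPKM in WS and 133 FPKM in sku5. It was 2.48-fold higher, with q = 0.00558 in the authors' deposited table and a computed standard error of 0.407 on the log2 scale. FIT (named FRU in the annotation, AT2G28160) stood at 33.6 and 57.4 FPKM. IRT1, the main ferrous iron importer of the root epidermis, shares a locus with AT4G19650, which stood at 151.5 FPKM in WS and 336 FPKM in sku5 with q = 0.00966 in the authors' deposited table. Next, the locus FRO4/FRO5, of the ferric reductase family, stood at 29.8 and 54.6 FPKM. The proton pump gene HA7 (AT3G60330) stood at 3.296 and 7.13 FPKM. So the loci of FIT, bHLH38/bHLH39, IRT1, FRO4/FRO5 and HA7 were each called higher, those of bHLH38/bHLH39, IRT1 and FRO4/FRO5 as merged entries. No other reductase of the FRO family and no other proton pump gene is among the called loci of this list. Whether FRO4/FRO5 takes part in the reduction of iron in these roots was not tested.

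Genes that handle the metals and compounds of the response were among them. CYP82C4 (AT4G31940), a cytochrome P450 that hydroxylates a coumarin secreted under iron shortage, stood at 11.9 FPKM in WS and 34.7 FPKM in sku5, 2.92-fold higher (standard error 0.642 on the log2 scale). The vacuolar zinc transporter gene MTPA2 (AT3G58810), which removes zinc that enters through IRT1, stood at 22.7 and 62.8 FPKM. GRF11 (AT1G34760), a 14-3-3 protein, was at 10.0 and 24.7 FPKM, and YSL3 (AT5G53550), a transporter of metals bound to nicotianamine, at 5.69 and 10.14 FPKM. The ferritin gene FER1 (AT5G01600), whose protein stores iron and whose transcript is known to rise with iron, was also higher, at 121 and 272 FPKM with q = 0.0403 in the authors' deposited table. Another merged locus, AT1G74770/AT1G74800, stood at 9.22 and 17.8 FPKM. The single lower locus merges the seed ferritin FER2 with ENGase85B and stood at 14.7 and 4.93 FPKM. Known markers of iron shortage and a marker of iron supply were thus higher in the same table.

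Called loci for copper proteins went in both directions. Of 23 genes for copper handling, superoxide dismutases and metallothioneins, 15 loci are in any table. Of these, 7 were called (46.7%, against 7.8% of all listed loci), 4 higher and 3 lower. Both copper and zinc superoxide dismutases, which remove superoxide, were lower, CSD1 (AT1G08830) at 212 FPKM in WS and 117 FPKM in sku5, and CSD2 (AT2G28190) at 151 and 63.3 FPKM. The uclacyanin gene UCC2 (AT2G44790) was also lower. The metallothioneins MT1C (AT1G07610) and MT2A (AT3G09390), small metal-binding proteins, were higher, MT1C having the highest level of all called loci at 4201 and 6876 FPKM. RAN1 (AT5G44790), which delivers copper to ethylene receptors, stood at 24.5 and 52.6 FPKM, and the copper pump HMA5, merged with RHS8, at 1.39 and 3.43 FPKM.

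Called cold and dehydration genes were higher in sku5. Of 21 genes on that list, 14 loci are in any table and 5 were called (35.7%, against 7.8% of all listed loci). All 5 were higher, while the heat shock loci and TSPO, HVA22B and AT2G38905 above were lower. The dehydrin gene ERD14 (AT1G76180) stood at 347 FPKM in WS and 624 FPKM in sku5, and the merged dehydrin locus COR47/ERD10 at 431 and 742 FPKM. These are the 2 higher members of the late embryogenesis family above. ERD6 (AT1G08930), a sugar transporter, was at 40.8 and 85.6 FPKM, the cold- and drought-induced gene LTI78 (AT5G52310) at 3.78 and 8.95 FPKM, and the drought-induced gene DI19 (AT1G56280) at 258 and 422 FPKM.

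Of 22 glutathione transferase loci in any table, a total of 4 were called (18.2%), and of 35 UDP-glycosyltransferase loci 4 (11.4%), against 7.8% of all listed loci, and all 8 were higher. The former join glutathione to reactive compounds and the latter add sugars to small molecules. GSTU24 (AT1G17170) stood at 157 FPKM in WS and 364 FPKM in sku5, and GSTU5 (AT2G29450) at 24.7 and 59.2 FPKM. UGT78D2 (AT5G17050), which glucosylates flavonols and anthocyanins, stood at 21.1 and 39.1 FPKM. The UGT73B and GSTU genes sit in clusters of close copies, which the authors' counting could mix. Of the oxidative stress list, 5 of 6 called loci were higher, among them the thioredoxin gene TRX5 (AT1G45145) at 739 and 1390 FPKM and the alternative oxidase gene AOX1A (AT3G22370) at 25.8 and 48.1 FPKM. MSRB9, a methionine sulfoxide reductase, was lower, at 749 and 535 FPKM.

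**Figure D3:**
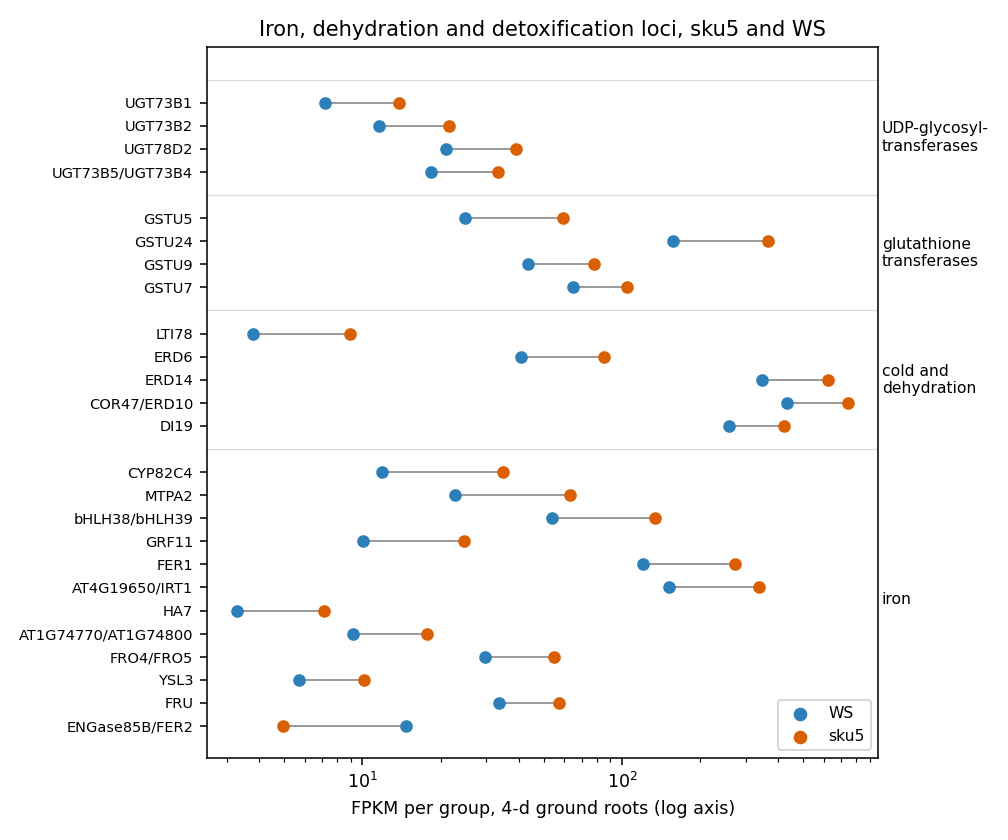
FPKM in WS (blue) and sku5 (orange) 4-d ground roots, on a log axis, for every called locus of the iron, cold and dehydration, glutathione transferase and UDP-glycosyltransferase groups, joined by a line for each locus; names with a slash are merged loci. All but the merged ENGase85B/FER2 locus are higher in sku5.

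Most called loci for glycoproteins of the cell wall and of the outer membrane face were lower, though most listed members of these families were not called. Extensins are hydroxyproline-rich proteins that crosslink into a network in the wall, arabinogalactan proteins are heavily glycosylated and often GPI-anchored, and early nodulin-like proteins are related to copper proteins and also often GPI-anchored, as SKU5 is. These families were added as lists after the called loci had been seen. All 7 called extensin loci were lower, of 29 listed in any table (24.1%), with a median log2 fold change of -1.40. Of 9 called arabinogalactan protein loci, of 21 (42.9%), 8 were lower and 1 higher. All 7 called loci of the early nodulin-like and cupredoxin group, of 15 (46.7%), were lower, SKU5 being one of them. Of all listed loci 7.8% were called, but these families were picked with the calls known.

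Among extensins, AT3G28550 stood at 116 FPKM in WS and 33.5 FPKM in sku5, 3.46-fold lower, with a computed standard error of 0.786 on the log2 scale. AT5G06630 stood at 89.9 and 28.9 FPKM, AT1G26250 at 106 and 36.4 FPKM, and AT3G54580 at 277 and 105 FPKM. LRX2 (AT1G62440), a leucine-rich repeat extensin known to act with LRX1 in root hair walls, was at 7.81 and 3.25 FPKM. Extensin repeats are alike between genes, so reads may be split among copies. The markers of root hairs were not called: of 7, only the proline-rich protein gene PRP3 is in any table, at 127 FPKM in 4-d WS ground roots and with no value for sku5. Root hair transcripts can thus not be compared through that list.

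Among arabinogalactan proteins, the merged locus AGP10/AT4G09070 stood at 383 FPKM in WS and 182 FPKM in sku5, AGP16 (AT2G46330) at 903 and 485 FPKM, and AGP1 (AT5G64310) at 194 and 102 FPKM. The fasciclin-like protein gene FLA8 (AT2G45470) was at 89.5 and 48.4 FPKM. AGP24 (AT5G40730), 1 of the 5 highest called loci, went the other way, at 995 and 1535 FPKM. In the early nodulin-like group the lower loci besides SKU5 included AT5G26330, at 51.4 and 22.4 FPKM, ENODL15 (AT4G31840), at 189 and 99.7 FPKM, and ENODL14 (AT2G25060), at 212 and 117 FPKM. Their folds lay between 1.73 and 2.29, below that of SKU5.

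**Figure D4:**
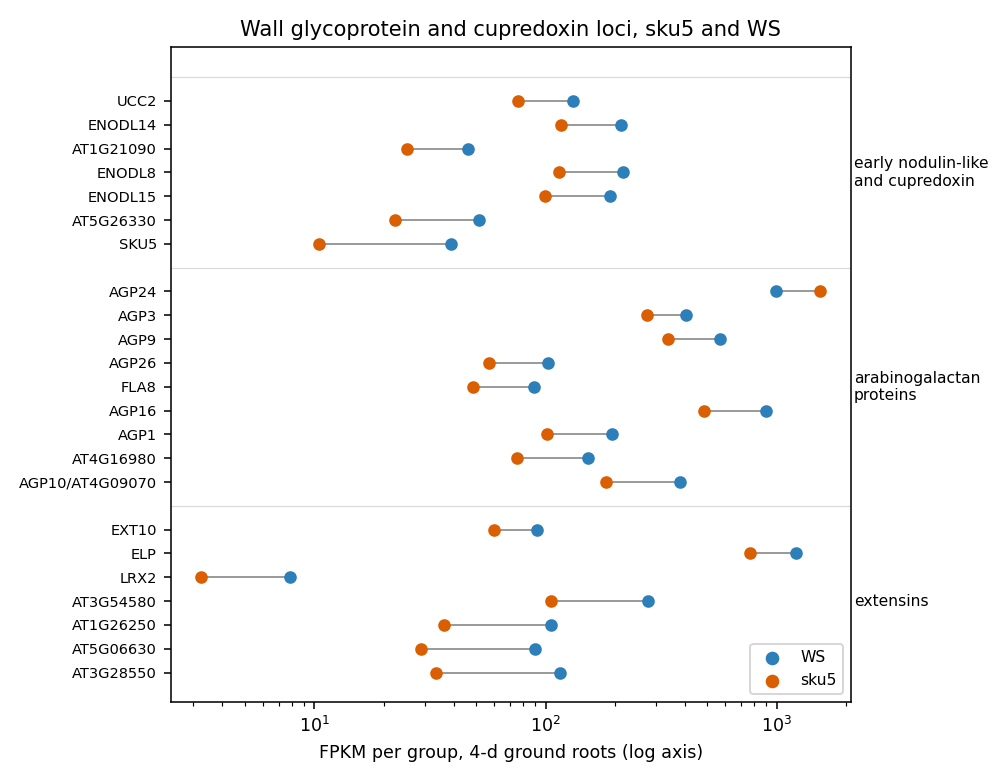
FPKM in WS (blue) and sku5 (orange) 4-d ground roots, on a log axis, for every called extensin, arabinogalactan protein and early nodulin-like or cupredoxin locus, joined by a line for each locus. AGP24 alone among these loci is higher in sku5.

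Called loci for enzymes that loosen walls did not share a direction. They were 1 of 8 expansin loci in any table (12.5%) and 3 of 12 xyloglucan enzyme loci (25.0%), against 7.8% of all listed loci. The expansin gene EXPA15 (AT2G03090) was lower, at 131 and 78.1 FPKM, and of the xyloglucan endotransglucosylases XTH15 (AT4G14130) was lower, at 118 and 69.5 FPKM, while XTH4 (AT2G06850) was higher, at 90.9 and 210.0 FPKM, and XTH18 (AT4G30280) was higher, at 32.5 and 55.9 FPKM. All 5 called loci with a peroxidase annotation, of 41, were higher, 4 class III peroxidases, which oxidise wall phenolics, and DOX1 (AT3G01420), an alpha-dioxygenase, at 125 and 295 FPKM.

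Of 18 genes known for root skewing, gravity response or microtubules, 9 loci are in any table. Of these, 4 were called (44.4%, against 7.8% of all listed loci). SPR1 (AT2G03680), a microtubule plus-end protein whose loss gives helical growth, stood at 1311 FPKM in WS and 849 FPKM in sku5. It was 1.54-fold lower, with q = 0.00558 in the authors' deposited table and a computed standard error of 0.314 on the log2 scale. MAP18 (AT5G44610), a protein that destabilises cortical microtubules, was higher, at 123 and 222 FPKM. SGR9 (AT5G02750), a ubiquitin ligase that lets amyloplasts detach from actin in the gravity-sensing cells of the stem, stood at 15.6 and 5.43 FPKM. SKU5 was the 4th. Among the loci named for skewing, SKU5 had the largest log2 fold change, -1.90 (standard error 0.437), against -1.53 for SGR9. As SKU5 is the mutated gene, its place is no separate result for the list.

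Gibberellin and brassinosteroid genes that were called were lower in sku5. All 6 called loci of the gibberellin and brassinosteroid list, of 13 in any table (46.2%, against 7.8% of all listed loci), were lower. Besides those that follow, they were GASA5 (AT3G02885), at 121 and 77.4 FPKM, and BRH1 (AT3G61460), at 92.8 and 53.6 FPKM. The 6 genes differ in role, so no change of either hormone pathway is read from their direction. GA3OX1 (AT1G15550), which makes active gibberellin, stood at 18.0 FPKM in WS and 8.04 FPKM in sku5, the factors GATA2 (AT2G45050) and GATA4 (AT3G60530) at 39.2 and 19.2 and at 52.0 and 28.5 FPKM, and BS1 (AT1G74500), a small helix-loop-helix protein that promotes elongation, at 233 and 139 FPKM. For auxin, 3 of 23 loci were called (13.0%), too few to read for the list. The repressor gene IAA7 (AT3G23050) was higher, at 52.1 and 91.4 FPKM. ARF21 (AT1G34410) and the vacuolar auxin transporter gene WAT1 (AT1G75500) were lower, WAT1 at 238 and 139.5 FPKM.

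Nutrient genes other than those for iron were fewer. Of the nitrate list, 5 of 15 loci were called (33.3%, against 7.8% of all listed loci), 4 higher and 1 lower. NRT2:1 (AT1G08090), the high-affinity nitrate transporter, stood at 4.14 and 8.81 FPKM and WR3 (AT5G50200), its partner protein, at 61.3 and 115 FPKM, while the amino acid permease gene AAP2 (AT5G09220) was lower, at 176 and 83.5 FPKM. Both called phosphate starvation loci, of 7 in any table (28.6%), were higher, a number too small to read for the list. RNS1 (AT2G02990), a secreted ribonuclease, had the largest rise of all, from 1.65 FPKM in WS to 8.04 FPKM in sku5. It had q = 0.0189 in the authors' deposited table and a computed standard error of 0.951 on the log2 scale. SPX1 (AT5G20150), a phosphate sensor, stood at 82.7 and 159 FPKM. The suberin list gave a single called locus of 10 in any table (10.0%, against 7.8% of all listed loci). It was the fatty acid hydroxylase gene CYP86B1 (AT5G23190), at 2.49 and 6.32 FPKM.

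The remaining large rises were of varied genes. The myrosinase-like BGLU34 (AT1G47600) stood at 1.24 FPKM in WS and 5.27 FPKM in sku5, 4.26-fold higher with a standard error of 0.861 on the log2 scale. AT1G73120, of the F-box/RNI superfamily, stood at 73.4 and 259 FPKM, 3.53-fold higher with a smaller error of 0.399, and AT1G65500, of unknown function, at 46.0 and 152 FPKM. The others were AT2G41730, at 23.5 and 69.2 FPKM, the 2-oxoglutarate oxygenase gene AT5G43450, at 2.26 and 6.74 FPKM, the root-specific kinase gene ARSK1 (AT2G26290), at 2.04 and 5.80 FPKM, and AT1G09310, at 38.1 and 107 FPKM. GRP-3 (AT2G05520), a gene for a glycine-rich protein, which has close copies beside it, stood at 49.1 and 137 FPKM. Called loci with nearby identifiers went both ways. GRP3S (AT2G05380) was higher, at 33.8 and 90.1 FPKM, and AT2G05510 was lower, at 25.0 and 8.00 FPKM.

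Of abundant transcripts, the ribosomal protein L41 gene AT3G56020 stood at 2298 FPKM in WS and 3354 FPKM in sku5, the defensin-like gene AT3G59930 at 752 and 1729 FPKM, and the merged lipid transfer locus AT5G46890/AT5G46900 at 1684 and 1018 FPKM. Cytosolic ribosomal proteins as a family gave 7 called of 182 loci in any table, 2 higher and 5 lower, a share below the 7.8% over all listed loci. Lipid transfer proteins gave 2 lower of 34 (5.88%) and cytochromes P450 2 higher of 42 (4.76%), both also below that share. The defensin-like family gave 3 higher and 1 lower of 13 (30.8%), and receptor-like kinases 4 higher of 22 (18.2%). MYB factors gave 4 higher and 1 lower of 48 (10.4%), and calcium-binding EF-hand proteins 2 higher of 18 (11.1%). The bHLH factors and the thioredoxins each gave 1 higher and 1 lower, of 20 and 23 loci (10.0% and 8.70%). With so few calls, no result for a family is read from these counts. WRKY and NAC factors, aquaporins and microRNAs gave 0 called loci, of 12, 17, 11 and 8 in any table.

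The same genotypes were compared at 8 d, with no sample shared with the 4-d groups. On the ground at 8 d the authors list 525 loci, 10.8% of those in any table, and 52 of them were called at 4 d, which is 13.6% of the 4-d list and 9.90% of the 8-d list. Of these, 29 were higher in sku5 at both ages, 17 lower at both and 6 opposite. In spaceflight at 8 d the list holds 1409 loci, 28.9% of those in any table, and 104 were shared, 27.3% of the 4-d ground list and 7.38% of the other. There, 11 were higher in both, 50 lower in both and 43 opposite. Whether the genotype effect differed between ages or environments was not tested, since the authors' tables hold no values per sample.

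Of the iron list, the IRT1 locus and FRO4/FRO5 were also called on the ground at 8 d. The former stood at 12.2 FPKM in 8-d WS and 59.9 FPKM in 8-d sku5, and FRO4/FRO5 at 26.7 and 35.4 FPKM. AT1G73120 was higher at both ages, at 11.9 and 31.4 FPKM at 8 d. XTH4 stood at 80.3 and 125 FPKM at 8 d, and IAA7 at 36.8 and 51.3 FPKM. All 6 opposite loci were lower in 4-d sku5 roots and higher in 8-d sku5 roots: the extensins AT1G26250, AT3G54580 and EXT10 (AT5G06640), the arabinogalactan protein AGP3 (AT4G40090), UCC2 and the lipase gene TLL1 (AT1G45201). AT1G26250, for example, stood at 162 FPKM in 8-d WS and 249.9 FPKM in 8-d sku5, and AGP3 at 220 and 302 FPKM. Thus 5 of the 6 are wall glycoprotein or cupredoxin genes, which were chosen for mention after their values had been seen.

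In 8-d spaceflight roots, 4 of the 11 seed list loci that were lower at 4 d on the ground were called, and all 4 were higher in sku5. PAP85 was listed at 0 in WS and 15.9 FPKM in sku5, and AT2G21820 at 3.67 and 47.2 FPKM. Opposite loci that were higher at 4 d on the ground included bHLH38/bHLH39, at 32.1 FPKM in 8-d WS and 16.9 FPKM in 8-d sku5 in spaceflight, MT1C, at 4305 and 3169 FPKM, GRP-3, at 8.97 and 2.00 FPKM, and MAP18, at 83.4 and 63.5 FPKM. Of the shared loci lower at 4 d on the ground, 50 were lower there too and 15 were higher. AGP10/AT4G09070, at 451 and 295 FPKM, and ELP (AT1G12090), at 791 and 530 FPKM, were among the 50. Of the shared loci higher at 4 d on the ground, 28 were lower there and 11 higher. Most shared loci were thus lower in 8-d sku5 roots in spaceflight, whichever their direction at 4 d.

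**Figure D5:**
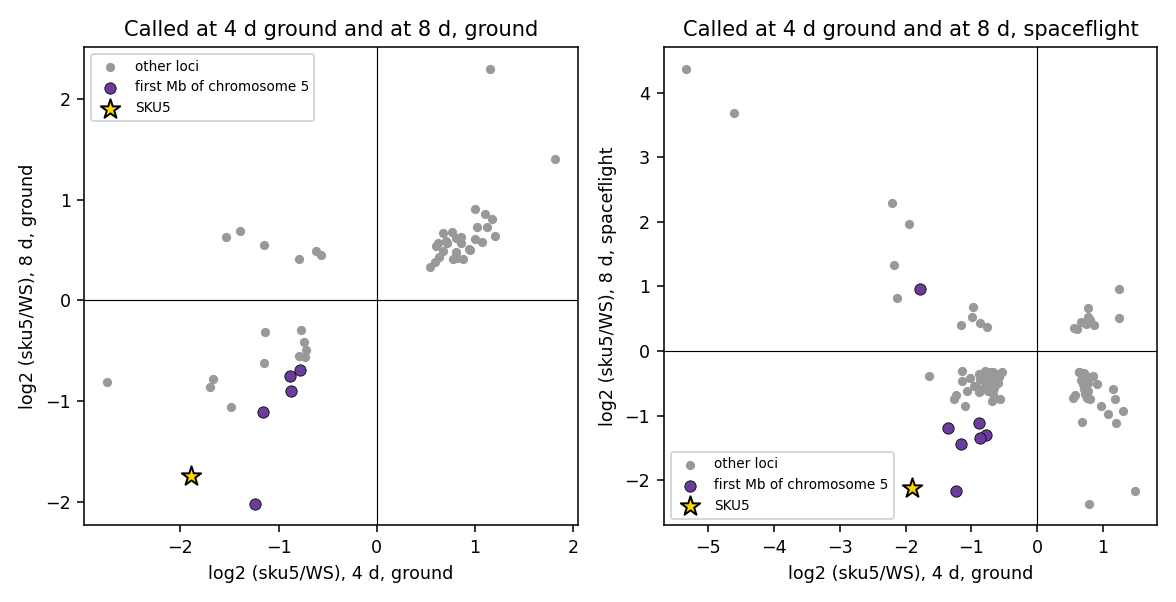
Log2 fold change of sku5 over WS at 4 d on the ground (horizontal) against that at 8 d on the ground (left) and at 8 d in spaceflight (right), for loci called in both tables with no value of 0; the star is SKU5 and purple points are loci in the first Mb of chromosome 5. SKU5 lies low in both panels, the upper left of the left panel holds the 6 loci of opposite direction, and the right panel has loci on every side of both zero lines.

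Called with the same direction in all 3 genotype comparisons were 10 loci, 9 lower and 1 higher in sku5. The higher one was the calcium-dependent protein kinase gene AT1G49580, at 11.9 and 21.6 FPKM at 4 d on the ground. The lower ones were SKU5, AT2G05910, RTFL2 (AT2G29125), BS1, and 5 genes that lie close together at the start of chromosome 5. In the authors' coordinates they span 267680 to 458397 and are AT5G01740, OHP (AT5G02120), a small light-harvesting-like protein of the chloroplast, Fes1C (AT5G02150), FHL (AT5G02200), which carries phytochrome A into the nucleus, and AT5G02280. OHP stood at 79.5 FPKM in WS and 33.7 FPKM in sku5 at 4 d on the ground, at 81.4 and 20.1 FPKM at 8 d on the ground, and at 64.6 and 14.4 FPKM at 8 d in spaceflight. FHL stood at 22.3 and 9.97, at 22.2 and 10.3, and at 21.9 and 8.05 FPKM in the same order. Both genes were lower in sku5 in each comparison. AT5G01740 was less even in WS, at 69.4, 29.6 and 32.5 FPKM, with sku5 at 40.4, 18.4 and 13.2 FPKM.

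The first Mb of chromosome 5 held 9 called loci at 4 d on the ground, 8 lower and 1 higher. They were 14.3% of the 63 listed there in any table, against 7.8% of all listed loci. The lower ones also include AT5G01670, AT5G01790 and SGR9, and the higher one is FER1. At 8 d the same stretch held 17 called loci on the ground, 13 of them lower, and 27 in spaceflight, 19 of them lower. Over 119 stretches of 1 Mb, the median was 3 called loci at 4 d on the ground, and no stretch held more than 8 lower loci. The most was 12, on chromosome 2 between 18000001 and 19000000 in the authors' coordinates, with 6 higher and 6 lower. Stretches differ in how many loci are listed. By share, some stood above the start of chromosome 5. On chromosome 5 between 14000001 and 15000000, for example, 6 of 21 were called (28.6%), 5 of them lower. Near SKU5 itself, 6 of 103 loci listed within 1 Mb were called, a share below that of all listed loci. The start of chromosome 5 was singled out after its values had been seen, and whether the lines differ in sequence there was not tested.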

How the data were processed

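Whole roots of WS and sku5 seedlings were sequenced by the authors from SMART-Seq v4 and Nextera libraries, made from 10 ng of total RNA with 8 cycles of PCR. The submitters' processing notes name STAR 2.5.1b, Cuffdiff, Cufflinks, Picard, Trimmomatic 0.36 and FastQC 0.11.2, with no roles, and strandedness, genome build and annotation are not given in the sources used here. Of 11 deposited tables, 1 compares WS with sku5 on the ground at 4 d, and the others gave values side by side. Each row holds, per the file headers, the FPKM of each group, a log2 fold change, a test statistic (a signed score), a p-value and a q-value, and all listed loci have a q-value under 0.05. The deposited p-values come in steps of 5e-05. With 1 value for each group, a fit over samples (limma, planned for values per sample) could not be made, and no test was added to the authors' calls. The standard error is the ratio of the log2 fold change to the test statistic, both as deposited, and is a rough scale only. Depth is unknown, so no floor or interval can be given.

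Folds were recomputed from the FPKM values (Python 3.11.15, pandas 2.3.3, numpy 2.4.6), and their calculation was tested on simulated data. A group's values in this table are 0.941 to 1.02 times those in others, with nearly the same ratio at every locus. Loci were matched by identifier to the RefSeq annotation of TAIR10.1, and all 345 single genes matched, but only 15 of them overlap the reference gene's position, so the authors' positions are on another build. Genes named are SKU5, the 10 largest rises and falls with at least 5 FPKM in the higher group, the 5 highest loci at 0 in sku5, the 5 highest levels, and called members of the lists, where the largest of each were chosen. Beyond that rule, the loci shared with the 8-d tables, those at the start of chromosome 5, GRP3S, AT2G05510 and PFD3 were named after their values were seen. The members and lists were chosen with earlier results of these data known. Percentages called are over the 4882 loci in any table, because the number tested by the authors is not known.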

Additional observations from a re-analysis of the deposited data

How the results depend on the processing

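Of the 381 loci, 186 were left at q under 0.01 and 156 when at least a 2-fold difference was asked for. At these settings 46.2% and 41.7% were higher in sku5, against 48.0% of all 381, and 49.2% of 368 without the seed reserve and late embryogenesis loci, an alternative chosen after seeing the data. The loci shared with 8-d ground roots went from 52 to 21 at q under 0.01 in both tables and to 6 at a change of at least 2-fold in both, and those shared with 8-d spaceflight roots from 104 to 42 and 14. With spaceflight, 20 of the 42 and 4 of the 14 had the same sign, against 61 of 104, so the majority of same signs was lost. These settings only remove loci by construction. An FPKM of at least 1 in the higher group removed no locus, and leaving out merged loci left 345. With a pseudocount of 1 the log2 fold changes of AT1G54870 and PAP85 became -6.28 and -4.89, and the other 19 of 21 named loci moved by less than their standard error. No direction reversed, and neither the filters nor the pseudocount could have reversed one. Folds of 13 named loci taken across other tables moved by up to 0.108 on the log2 scale. No paired analysis was possible because the authors' tables hold 1 value for each group, and for the same reason no sample could be left out, so whether a single library decides a value cannot be seen. Depth, and with it the precision of low values, is unknown.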

Other observations

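Some called loci outside the lists, picked after their values were seen, belong to transport and signalling. The sulfate transporter gene SULTR1;2 (AT1G78000), which takes up sulfate in the root, stood at 71.5 FPKM in WS and 156 FPKM in sku5, and was also higher in sku5 at 8 d on the ground, at 78.4 and 130 FPKM. The sugar transporter gene STP4 (AT3G19930) stood at 11.4 and 23.5 FPKM. SOS3 (AT5G24270), a calcium sensor of salt tolerance counted above among EF-hand proteins, stood at 14.9 and 30.7 FPKM, and the merged locus of the protein kinase gene SNRK2.7 and AT4G40011 at 9.29 and 25.1 FPKM. PEN2 (AT2G44490), a myrosinase of penetration resistance, stood at 17.1 and 33.1 FPKM, and was higher at 8 d on the ground too, at 16.4 and 23.2 FPKM. CPC (AT2G46410), a MYB protein that moves between epidermal cells and promotes root hair fate, stood at 56.9 and 94.7 FPKM at 4 d on the ground, and was lower in sku5 at 8 d in spaceflight, at 69.6 and 43.7 FPKM. These are the authors' group values, and the differences between ages were not tested.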
